A study of Homo sapiens with 6 samples.

Results

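The miR-29 family precursors in the deposited table are 3 hairpins, hsa-mir-29a, hsa-mir-29b-1 and hsa-mir-29b-2 (mir-29a, mir-29b-1 and mir-29b-2 below), out of 147 in all. They were picked by hairpin name and not by a rule on measured values, although earlier results of these data were known. They stand for 2 mature miRNAs, miR-29a-3p and miR-29b-3p, since mir-29b-1 and mir-29b-2 are copies that give the same mature sequence. The mir-29c hairpin of the family was not analysed here. Small RNAs were sequenced from HCT116, a human colorectal carcinoma line, in which the DICER gene had been knocked out in all samples. The cells had been transfected with a plasmid carrying either the whole enzyme, in the 3 samples of the DICER-WT rescue, or DICER without its helicase domain, in the 3 samples of the DICER-delHelicase rescue, and were harvested 48 h later. Both groups therefore measure DICER supplied from a plasmid and not from its own gene, and no untransfected knockout sample was analysed here.

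The members of the miR-29 family repress messenger RNAs of the extracellular matrix, among them many collagens, and also those of the DNA methyltransferases DNMT3A and DNMT3B and of the survival factor MCL1. In most tissues the active strand comes from the 3′ arm (3p) of the hairpin. DROSHA first cuts the hairpin out of the primary transcript, and DICER then removes the apical loop. The DICER cut sets the 5′ end of the 3p strand, and with it the seed, the bases 2 to 8 that choose the targets. The helicase domain of DICER lies near the loop end of a bound precursor.

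The hairpins are shown as the authors deposited them, because the results turn on the place where the 3p strand begins. Capitals mark the annotated 3p miRNA, from RefSeq (GRCh38.p14), and each deposited sequence holds 10 further bases on either side of the RefSeq hairpin.
mir-29a: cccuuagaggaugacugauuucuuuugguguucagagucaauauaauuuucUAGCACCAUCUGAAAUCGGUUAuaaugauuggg
mir-29b-1: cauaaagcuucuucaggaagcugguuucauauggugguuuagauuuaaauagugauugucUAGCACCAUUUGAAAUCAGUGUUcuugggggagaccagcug
mir-29b-2: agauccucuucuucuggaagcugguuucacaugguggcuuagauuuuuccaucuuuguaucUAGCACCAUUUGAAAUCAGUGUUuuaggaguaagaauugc

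The mature 3p strands from RefSeq are given with the seed in capitals, since all of them share it.
miR-29a-3p: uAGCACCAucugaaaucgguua
miR-29b-3p: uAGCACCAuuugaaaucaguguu
miR-29c-3p: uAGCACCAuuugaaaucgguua
Among 2370 RefSeq mature human miRNAs this seed was found in these 3 alone, and among the 116 miRNAs of the table that matched a RefSeq entry it was found in the 2 members. Counted from the 5′ end, the differences from miR-29a-3p to miR-29b-3p are C10U, G18A, U21G and A22U, all outside the seed. The 3 hairpins also have the same base, a C, directly before the 3p strand.

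The hairpins come from 2 clusters on the minus strand (GRCh38). The mir-29a hairpin lies at chr7:130876747-130876810 and mir-29b-1 at chr7:130877459-130877539, with 648 bases between them. In the GENCODE release 29 annotation both lie within an intron of the long non-coding gene AC016831.6. The mir-29b-1 hairpin is also exonic in LINC-PINT, another long non-coding gene, and mir-29a is exonic in it in part. Both also lie opposite an intron of LINC00513, a long non-coding gene on the plus strand. The mir-29b-2 hairpin lies at chr1:207802443-207802523, in an exon of its host gene MIR29B2CHG, which also holds mir-29c. In the scores given next, mir-29b-1 was closer to its copy on chromosome 1 than to its neighbour on chromosome 7. The copies share the whole 3p strand and may share reads, so this closeness says nothing about cluster or chromosome.

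The table gives, for each hairpin and DICER construct, a single variation score, named a global variation in the file header. The sources used here do not give its formula, or how it was made from 3 samples. With 1 value per construct there is no spread between samples, so no difference below has a replicate check or a test, and the depth behind the scores is unknown. Over all 147 hairpins the median DICER-WT score was 0.0804 and the median DICER-delHelicase score 0.146.

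For mir-29a the DICER-WT score was 0.506 and the DICER-delHelicase score 0.620. For mir-29b-1 the DICER-WT score was 0.163 and the DICER-delHelicase score 0.128. For mir-29b-2 the DICER-WT score was 0.143 and the DICER-delHelicase score 0.113. The mir-29a hairpin was the high one with both constructs, and its score lay above both mir-29b scores by a factor of 3.31 (against their mean) with DICER-WT and of 5.14 with DICER-delHelicase. Both copies of mir-29b scored lower without the helicase domain. The change, DICER-delHelicase minus DICER-WT, was -0.0350 for mir-29b-1 and -0.0297 for mir-29b-2, or -21.5% and -20.7% of the DICER-WT scores. The deposited score of mir-29a was higher by 0.114 (22.5%) without the helicase domain, but lower relative to the other hairpins, since its rank went from 8 to 20 of 147 and its multiple of the median score from 6.30 to 4.24. A fall in rank was common from so high a start. Every hairpin ranked above mir-29a with DICER-WT also fell, as did mir-140 (9 to 19) and mir-30a (10 to 14, with a change of 0.326). The next in rank, mir-500a, rose from 11 to 4.

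Among all hairpins, 72.1% scored higher with DICER-delHelicase and 25.9% scored lower. Of the 3 miR-29 hairpins 1 was higher and 2 were lower, and the latter are copies of a single miRNA. A deposited score higher by at least 0.1, as for mir-29a, was found in 37.4% of hairpins, so its size was common. A score lower by at least 0.1 was found in 7.48%, and neither mir-29b copy reached it. Hairpins with a DICER-WT score below 0.1 had no room for such a fall, and the median DICER-WT score was 0.0804. The median change over the 3 hairpins was -0.0297, against 0.0261 over all hairpins, but their mean change was 0.0165.

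**Figure D1:**
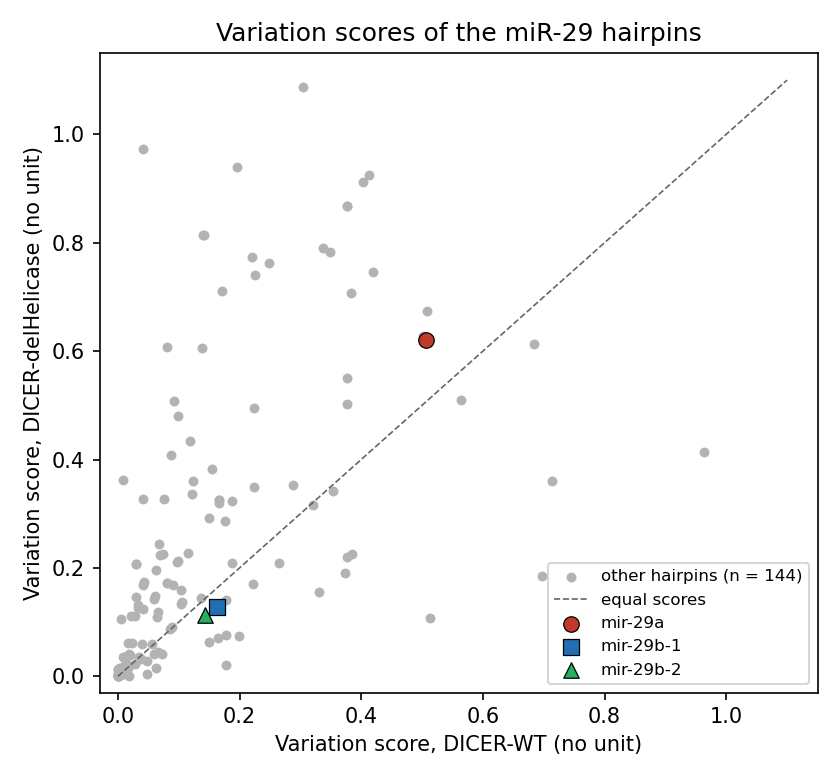
Variation score with DICER-delHelicase (vertical axis) against DICER-WT (horizontal axis), both without unit, 1 point per hairpin; the dashed line marks equal scores. The mir-29a point (0.506, 0.620) lies above the line and nearly covers that of mir-140, while the mir-29b points lie together just below the line. The rank of mir-29a nevertheless went from 8 to 20, and every hairpin ranked above it with DICER-WT also fell in rank.

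By rank, the mir-29b copies stood lower without the helicase domain. With DICER-WT, mir-29b-1 and mir-29b-2 ranked 48 and 52 of 147, in the upper part of the table. With DICER-delHelicase they ranked 81 and 85, below the median hairpin. On the log2 scale, with 0.01 added to each score, the change was 0.29 for mir-29a, -0.33 for mir-29b-1 and -0.31 for mir-29b-2, against a median of 0.58 over all hairpins. Relative to that median the values were -0.29 for mir-29a, -0.91 for mir-29b-1 and -0.89 for mir-29b-2, so all 3 members lay below it. A median has about as many hairpins below it as above, and the mir-29b hairpins are copies of a single miRNA. The count is therefore not read as a family trait.

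Hairpins that began at a similar DICER-WT score give a closer frame for the mir-29b copies. Of the 27 other hairpins within 0.05 of the mir-29b mean of 0.153, 21 scored higher with DICER-delHelicase and 6 lower, with a median change of 0.137. All 6 of the lower ones had a change at or below that of mir-29b-1. Around mir-29a, 6 other hairpins lay within 0.1 of its DICER-WT score, and their changes ran from -0.405 (mir-3928) to 0.512 (mir-500a) with a median of 0.147. The 0.114 of mir-29a sat between those of mir-93 (-0.0539) and mir-140 (0.126).

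The other column on the DICER products sets the members apart as well. It holds the main 5′ end of each 3p miRNA with DICER-WT, read here as an offset in nucleotides from the annotated end. That offset was 0 for mir-29b-1 and mir-29b-2 and -1 for mir-29a. Only 7 of the 147 hairpins had an offset other than 0, and 3 of these, mir-29a, mir-16-2 and mir-425, had -1. Of the 7, 5 scored lower with DICER-delHelicase, while mir-29a and mir-203a (0.377 and 0.551) had higher deposited scores. By rank all 7 stood lower with DICER-delHelicase, mir-203a going from 17 to 24. They began at DICER-WT ranks from 1 (mir-10399) to 35 (mir-16-2) of 147, where a rank has more room to fall than to rise. The lower ranks are therefore not read as a trait of shifted ends.

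Another column, a Yes or No class headed 2-nt and derived from DICER-WT products, was Yes for mir-29a and No for both mir-29b copies. The header does not define the class. It was compared here with the predicted minimum free energy fold of each deposited hairpin, by counting the stacked base pairs between the main 5′ end and the nearest unpaired base or bulge toward the loop. The count could be made for the 136 hairpins whose miRNA matched a RefSeq entry. Of the 67 hairpins with 2 such pairs, 63 were Yes, and of the 27 with 3 such pairs, 1 was Yes (mir-1180). None of the 8 hairpins with 4 pairs or the 3 with 5 was Yes, while 1 of 11 with a single pair and 5 of 20 with no pair were. For the 7 hairpins with a shifted end, these counts rest on a sign of the offset that was itself chosen by this class (below). Counted from the annotated end, which needs no sign, 59 of 65 hairpins with 2 pairs were Yes. With 3 pairs 2 of 28 were, mir-29a being 1 of these 2. In these folds the class thus mostly marks an end that lies 2 paired bases from a loop or bulge, but mir-29a is no independent case of it.

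**Figure D2:**
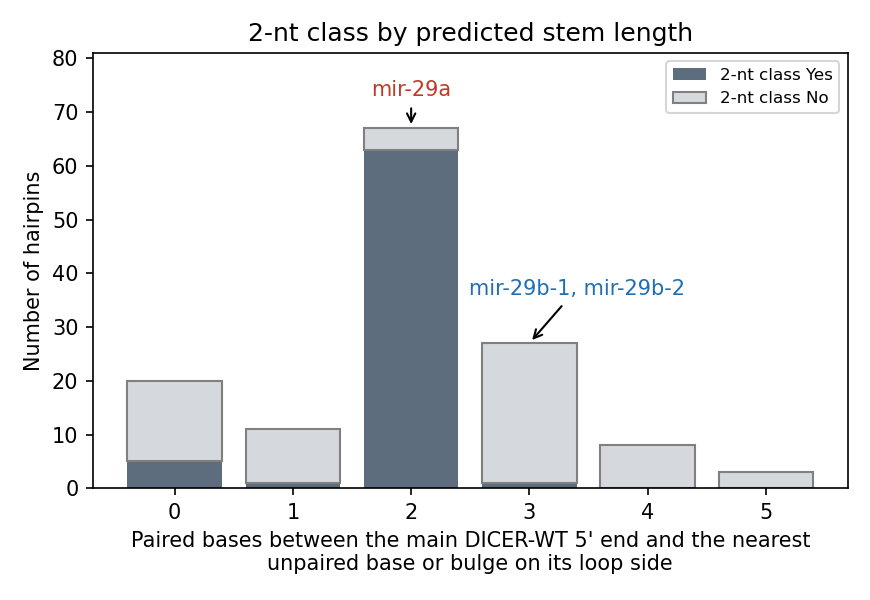
Number of hairpins (vertical axis) by the count of paired bases between the main DICER-WT 5′ end and the nearest unpaired base or bulge toward the loop (horizontal axis), with the 2-nt class as shade. Most hairpins with 2 paired bases (63 of 67) are in the class Yes, and 26 of 27 with 3, both mir-29b copies among them, in the class No. The place of mir-29a at 2 rests on a sign of its offset that was chosen by this class.

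The same count bears on the sign of the offset, which the header leaves undefined. When a negative offset was read as a shift toward the loop, all 4 shifted hairpins of class Yes (mir-29a, mir-16-2, mir-324 and mir-10399) had exactly 2 paired bases. When the sign was turned round, none of the 4 had 2, and mir-29a had 4. The offset of mir-29a was therefore read as an end 1 base closer to the loop than the annotated end, a reading from the data that the header does not state.

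On the loop side of the annotated end, all 3 members have 3 predicted paired bases before the loop. On the other side the folds differ. Just past the first base of the 3p strand, mir-29a and mir-29b-2 have an unpaired base in the 5p strand, and mir-29b-1 has none there. The bases between the annotated 5p and 3p strands are shown, with the 3 paired bases next to the 3p strand in capitals.
mir-29a: agucaauauaauuUUC
mir-29b-1: uuuaaauagugauuGUC
mir-29b-2: auuuuuccaucuuuguAUC
With the offset as read here, the main DICER-WT end of mir-29a lay 2 paired bases from the loop, and in the mir-29b copies it lay 3 paired bases from it. Of the 28 hairpins with 3 paired bases before the annotated end, mir-29a was the one with a main end elsewhere. It also had the highest DICER-WT score of the 28, whose scores ran from 0.000475 to 0.506 with a median of 0.0921. The other 25 hairpins that are no miR-29 members had a median of 0.0725, and 6 of them scored at or above mir-29b-1.

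**Figure D3:**
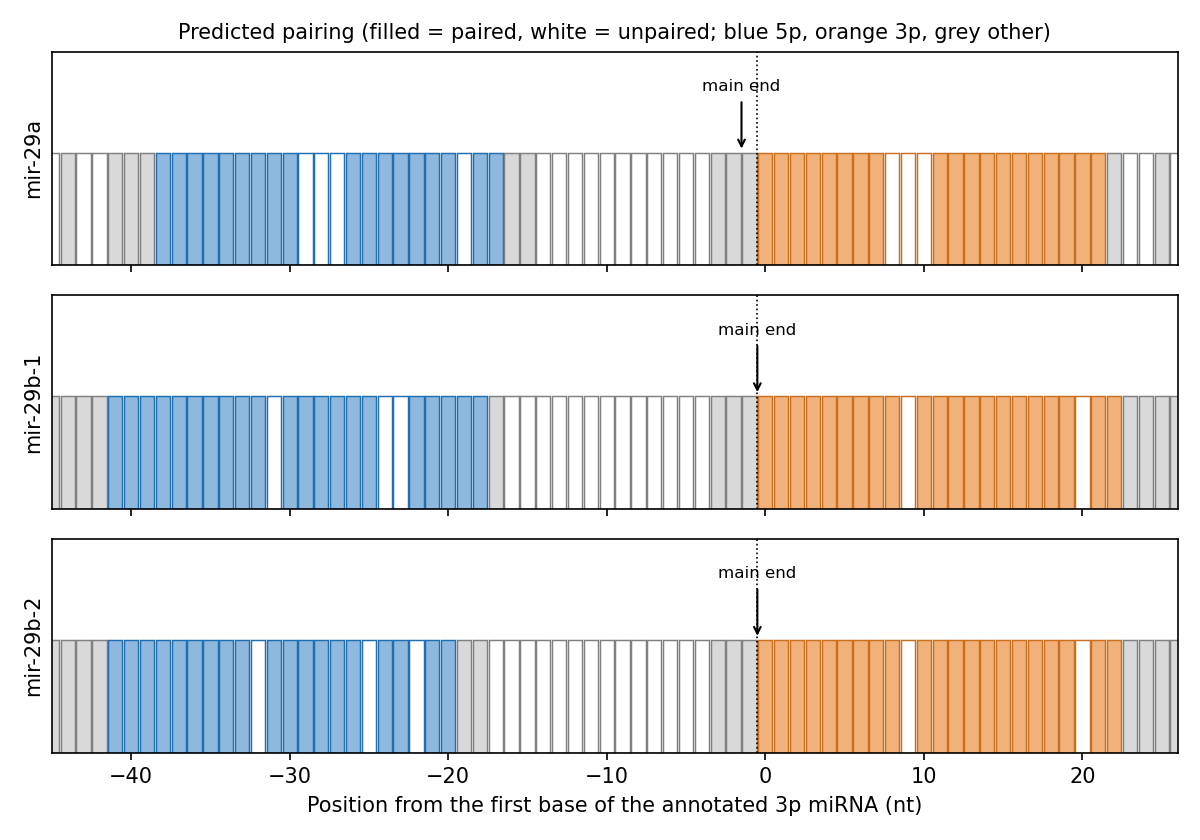
Predicted pairing of the 3 hairpins by position in nucleotides from the first base of the annotated 3p miRNA (horizontal axis); filled bars are paired and white bars unpaired, with the 5p strand in blue, the 3p strand in orange and other bases in grey. The arrow marks the main DICER-WT 5′ end as read here, 1 base before the annotated end (dotted line) in mir-29a and at it in both mir-29b copies.

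With the main end as read here, the mir-29a product begins with the C before the annotated strand, and its seed moves by 1 base. The sequence from that end to the annotated 3′ end is shown with the moved seed in capitals, because it differs from the family seed.
mir-29a main end: cUAGCACCaucugaaaucgguua
The moved seed was found in 1 of the 2370 RefSeq mature miRNAs, miR-5682, and in no annotated miRNA of the table. The table gives no share of reads for either end, so how much of miR-29a-3p began there is not known from these data. The main end is given for DICER-WT only, so whether it was the same with DICER-delHelicase is not known either.

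The members share an apical part rich in A and U. The stretch between the annotated arms held 81.3% A or U in mir-29a (16 bases), 76.5% in mir-29b-1 (17 bases) and 73.7% in mir-29b-2 (19 bases). The median over the 108 hairpins with both arms placed was 53.8%, and 4, 8 and 11 of them were at or above the respective member. These counts include the member itself and any other member above it. The predicted terminal loops were large too, with 11, 13 and 14 unpaired bases against a median of 6 (quartiles 4 and 9) over 136 hairpins. From the start of the 5p strand to the end of the 3p strand, mir-29a spans 60 bases, which is the median length, and both mir-29b copies span 64. In the duplex, 3 bases of the 3p strand were unpaired in mir-29a and 2 in each mir-29b copy, against a median of 3. Within the family, mir-29a had the smallest loop and the highest share of A and U. Whether these features bear on the scores was not tested.

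The mir-29b copies gave close but unequal scores, 0.0197 apart under DICER-WT and 0.0144 apart under DICER-delHelicase. Of the 16 miRNAs with several hairpins in the table, let-7a-3p alone had a wider gap with either construct. In the other 14 the copies differed by at most 0.00793 under DICER-WT and 0.00618 under DICER-delHelicase. The mir-29b hairpins share an unbroken run of 25 bases, which begins 2 bases before the 3p strand and ends with it. Reads of miR-29b-3p within that run cannot be assigned to a copy by sequence, so the copies are not independent measurements. The mir-29a hairpin shares a run of 11 bases with either copy.

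**Figure D4:**
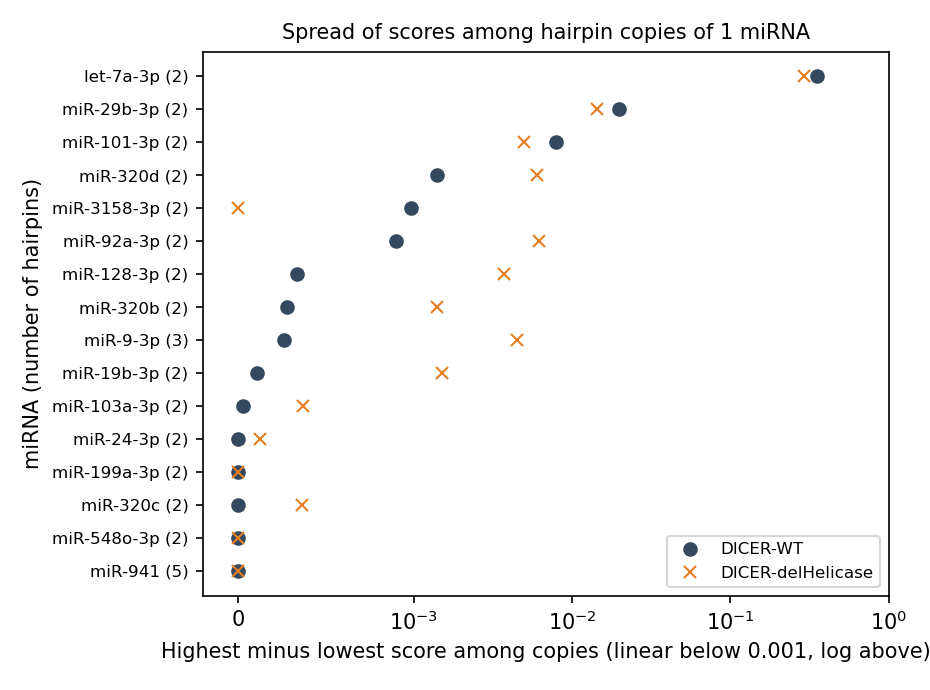
Highest minus lowest variation score among the hairpin copies of each miRNA (horizontal axis, linear below 0.001 and logarithmic above, no unit) for DICER-WT (circles) and DICER-delHelicase (crosses). The mir-29b copies, apart by 0.0197 and 0.0144, come second after those of let-7a-3p with both constructs. The gaps are absolute, and copies that score near 0 cannot lie this far apart.

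The split within miR-29 was set against other families, which differ in size. A gap or span can only widen with more miRNAs in a family. Of 14 family lists with more than 1 miRNA, miR-29 included, 7 held both higher and lower hairpins. The changes of miR-29a-3p and miR-29b-3p (the latter as the mean of its copies) were 0.146 apart, a gap that turned to -0.975 with each construct scaled to its median. As deposited, 7 of the 14 families, miR-29 included, had a gap between miRNAs at least that wide. The DICER-WT scores within miR-29 spanned 0.363, and 4 of the 14, miR-29 included, spanned at least as much. The others of these 4 (let-7 with miR-98, miR-30, and miR-17-92 with paralogs) hold 6, 5 and 8 miRNAs, against 2 in miR-29. Among families of 2 miRNAs, the widest span after miR-29 was 0.119 (miR-125). Within that group, only miR-103 with miR-107 had a wider gap (0.167), and only miR-27 also held both directions. The median change of miR-29 was second from the lowest of the 14, but 2 copies of a single miRNA set it. With the copies averaged it was 0.0409.

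**Figure D5:**
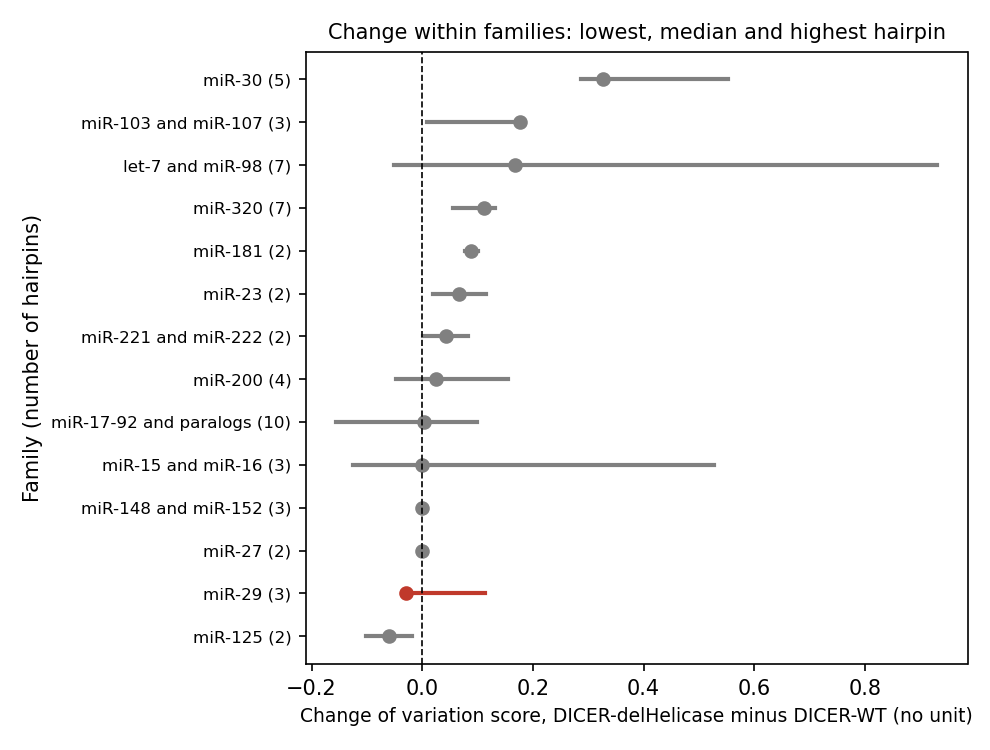
Change of the variation score, DICER-delHelicase minus DICER-WT (horizontal axis, no unit), in 14 families with more than 1 miRNA; the dot is the median hairpin and the line runs from the lowest to the highest. The miR-29 line (red) runs from -0.0350 to 0.114, and its median of -0.0297, set by the mir-29b copies, becomes 0.0409 with the copies averaged. The upper end is mir-29a, whose rank was nevertheless lower, as was that of every hairpin ranked above it with DICER-WT.

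The hairpins nearest to the members by both scores were taken from all 144 others, as a description over 2 constructs. For mir-29a the nearest was mir-140, with 0.501 under DICER-WT and 0.628 under DICER-delHelicase. It was followed by let-7a-3 (0.507 and 0.674), mir-93 (0.564 and 0.510) and mir-203a. The first 3 of these, like mir-29a, are in the class Yes with 2 paired bases before the main end, and mir-203a is in the class No with 5. The counts of mir-29a and mir-203a rest on the sign of the offset, which was itself chosen by this class. Over all hairpins, 73 of 147 are in the class Yes, so little can be read from the 4 nearest hairpins. For the mean of the mir-29b copies the nearest were mir-423 (0.136 and 0.144), mir-193b (0.178 and 0.141), mir-3662 (0.106 and 0.137) and mir-18a (0.104 and 0.133). Of these, mir-423 and mir-3662 are in the class No with 3 paired bases, as the mir-29b copies are, mir-193b is a class No hairpin with 1, and mir-18a is in the class Yes with 2.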

How the data were processed

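Per the submitters' processing notes, cutadapt, Bowtie2, bedtools and GRCh38 were used. No source used here gives their versions or settings. The authors deposited 1 variation score per hairpin and DICER construct (294 lines), plus the main 5′ end and 2-nt class with DICER-WT, per the file headers. The samples were grouped by title, 3 per group, and are not separate in the table, so no test was run, and the scores carry no depth or interval.

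The DICER-WT score was subtracted from the DICER-delHelicase score for each hairpin. The log2 ratios had 0.01 added to each score. Deposited hairpins were folded with RNAfold (ViennaRNA 2.7.2, default settings). The stem count was checked on 200 built structures. The RefSeq miRNA table matched 136 of 147 hairpins.

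Besides the members, the text names the 4 hairpins nearest by Euclidean distance of both scores, those with a main end other than 0, the extreme copies, and single hairpins at the ends of a range, chosen after their values were seen. The members and lists were chosen with earlier results of these data known. The stem count, the score windows and the overlaps of sequence were chosen after the table was seen.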

Additional observations from a re-analysis of the deposited data

How the results depend on the processing

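The lower score of both mir-29b copies held its direction as a log2 ratio, as a difference of percentile ranks and after scaling each construct to its median. The higher score of mir-29a held as a log2 ratio, but became -8.16 percentile points as a rank difference and -2.05 multiples of the median after that scaling, since its score grew 1.23-fold while the median over all hairpins grew 1.82-fold. The gap between mir-29a and the mir-29b mean (0.146) likewise turned to -0.975 after the scaling and kept its direction as log2 ratios and as ranks; for this gap the scaling and the ranks were added after the data were seen. The median of -0.0297 over the members became a mean of 0.0165, and 0.0409 with the copies averaged into 1 value per miRNA, which gives mir-29a more weight. The share of higher hairpins was 72.1% over all hairpins, 70.1% with 1 value per miRNA, 74.3% with an offset of 0 and 65.1% with a DICER-WT score of at least 0.1, values that rest on overlapping hairpins. The centroid fold, and the fold of RefSeq hairpins without flanks (added later), gave each member the same stem count. With centroid folds 59 of 66 hairpins with 2 pairs were in the class Yes, and 1 of 25 with 3. No paired analysis was possible because the deposited score is a single number per construct, and for the same reason no replicate was left out. Small changes cannot be told from noise without depth or replicates.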
